A study of Drosophila melanogaster with 31 samples.

Results

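The 29 glutathione transferase (Gst) genes of the deposited expression table were followed through 31 poly(A) RNA-seq libraries of Drosophila melanogaster ovaries. They were taken as every row whose symbol starts with Gst and a capital letter, which gave 29 of the 9251 genes of the table; a RefSeq gene table of Release 6 lists 35 such genes. By the letter after Gst, 13 belonged to class E (epsilon), 7 to class D (delta), 4 to class T (theta), 3 to class O (omega), and 1 each to class S (sigma) and class Z (zeta).

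Glutathione transferases join the tripeptide glutathione to reactive or fat-soluble molecules, which can then be carried out of the cell. In insects the delta and epsilon classes are known for the removal of insecticides, plant toxins and products of lipid oxidation, and most of their genes sit side by side in tandem arrays. Some of these enzymes have other known roles. GstE14, also called noppera-bo, acts in the making of the steroid hormone ecdysone, a hormone of egg chamber growth. An omega enzyme takes part in making eye pigment.

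The study asked how RNA degradation takes part in the change from germ cell to maternal state, per its title, and it compared ovaries of several genotypes. Young wild type ovaries were dissected 0 to 3 hours after eclosion and all others 1 to 3 days after it. Young and adult wild type ovaries carried a UAS-Dcr-2 transgene and a GAL4 driver of the germline gene nos (nanos), without an RNAi line. The tst mutant (tst is also called twister) was tstMB10212 over the deficiency Df(3R)Exel9013, and tst RNAi ovaries had UAS-Dcr2 and nosGAL4 driving tst RNAi, so the knockdown was aimed at the germline. The pelo mutant was pelo1/pelo1 with pelo1/CyO as its heterozygote, and the hfp mutant was hfp9/hfp9 with hfp9/TM2 as its heterozygote. Total mRNA of these 8 groups was measured in 2 libraries each. A further set held polysome RNA and its input (total mRNA of the same preparation) from tst RNAi, pelo mutant and control ovaries, 2 of each, where control replicate 1 carried the UAS-Dcr-2 and nos GAL4 transgenes and control replicate 2 was pelo1/CyO. Single libraries came from the polysomes and the input of nosGAL4>bam RNAi ovaries and from bamΔ86 ovaries.

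Levels are given in TPM, a gene's share of all transcripts after scaling for its length, so the read depth behind a value is unknown. The number of genes at 1 TPM or more per library was 7233 to 8675. A difference is the mean log2(TPM + 1) of one group minus that of another. Its standard error (SE) and its Benjamini-Hochberg adjusted p over all tested genes are those of limma, and on that scale changes of weakly expressed genes are understated. The labels do not say whether libraries of a group came from separate animals, so p-values measure only the spread between these libraries, which may be technical. In the set of inputs and polysomes the control preparations differed in genotype, so the spread between them may also hold differences of genotype. In whole ovaries, fewer cells of a type and less RNA per cell cannot be told apart. The tst transcript measured 6.34 and 8.62 TPM in tst mutant ovaries and 6.77 and 11.7 TPM in tst RNAi ovaries, against 35.3 and 39.6 TPM in adult wild type. The pelo transcript was at 10.8 and 44.6 TPM in the pelo mutant, against 45.1 and 90.5 TPM in its heterozygote, and hfp at 9.29 and 20.8 TPM in the hfp mutant, against 25.8 and 48.1 TPM in its heterozygote.

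In adult wild type ovaries the family was led by GstD1, a delta enzyme known for its activity towards DDT. GstD1 stood at 1771 and 1392 TPM, 1581 ± 269 TPM (SD, n = 2), and made up 54.3% and 47.4% of the summed TPM of the 29 genes. GstE6 of the epsilon class followed with 325 and 364 TPM. Between these and the next gene there was no overlap of libraries, but the 6 genes after them, GstT1 (134 and 128 TPM), GstD3 (99.3 and 149 TPM), GstO2 (118 and 114 TPM), GstS1 (155 and 76.2 TPM), GstO1 (111 and 118 TPM) and GstE1 (97.0 and 108 TPM), lay within the spread of GstS1. Of the family, 8 genes averaged 100 TPM or more, 12 averaged 10 to 100 TPM, 5 averaged 1 to 10 TPM and 4 averaged under 1 TPM in adult wild type. The lowest were GstD10, GstD5, GstE2 and GstE10, the last listed at 0.136 and 0 TPM.

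Of the 29 genes, 21 reached 1 TPM in every library and 5 were listed at 0 in at least 1. Over the 16 total mRNA libraries the lowest and highest log2(TPM + 1) of a Gst gene were a median of 2.78 apart, against a median of 1.99 over all tested genes, and 21 of 29 Gst genes lay above that. The steadiest were GstO2, an omega class gene, with 85.8 to 150 TPM, GstT1 with 77.6 to 150 TPM and GstE13 with 52.6 to 105 TPM. The widest spans were those of GstD5 (0 to 106 TPM), GstE10 (0 to 80.3 TPM) and GstD2 (0 to 71.0 TPM). GstZ1, whose mammalian counterpart acts in tyrosine breakdown, ran from 19.4 to 84.5 TPM, and the sigma enzyme GstS1 from 51.8 to 175 TPM.

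**Figure D1:**
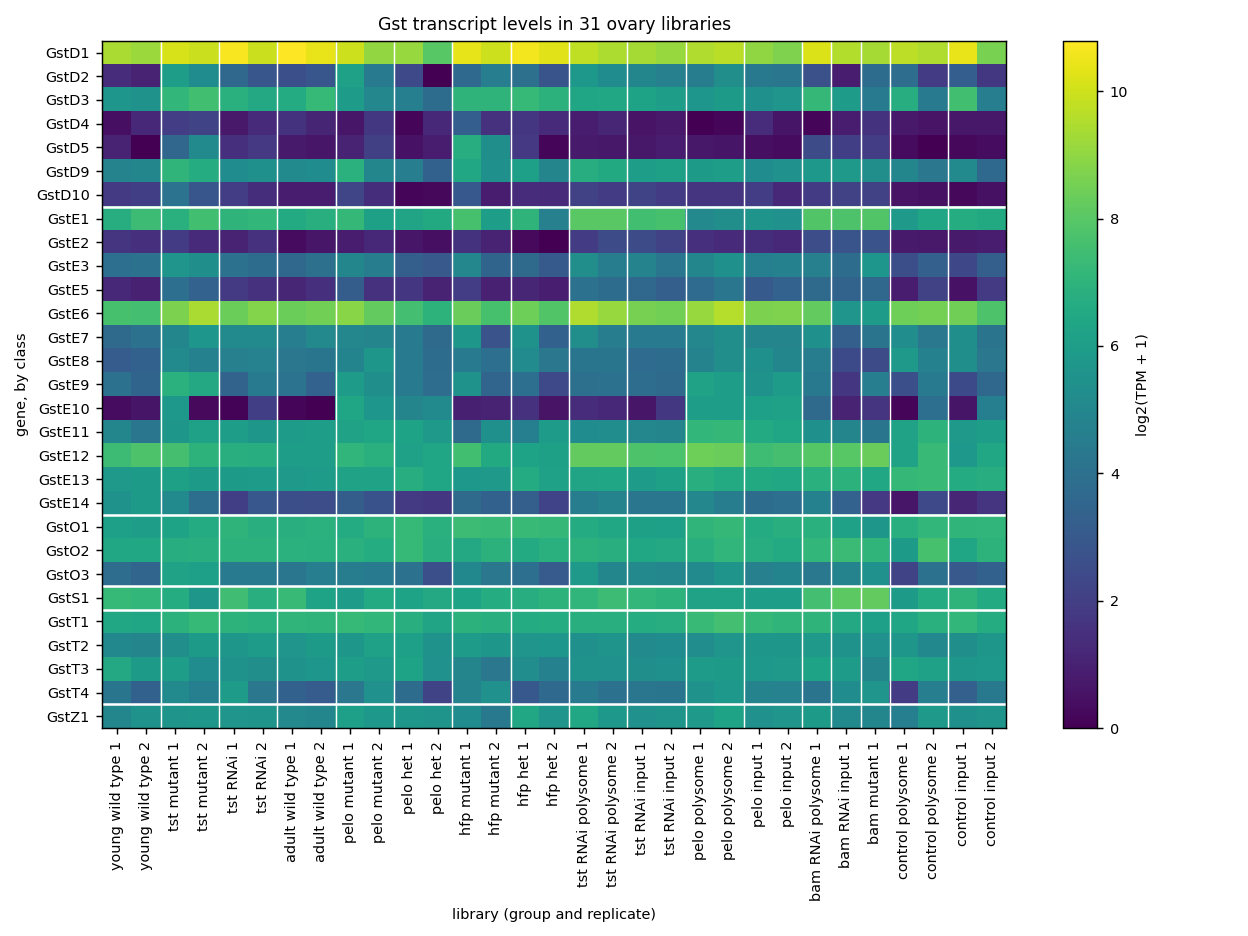
Heat map of log2(TPM + 1) for the 29 Gst genes (rows, by class) in the 31 libraries (columns, by group and replicate). GstD1 is the highest row in every library except pelo mutant input replicate 2, where GstE6 has 415 TPM and GstD1 413 TPM, and GstE10 is bright in every library that carries pelo1 and in 2 others.

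The comparison of young with adult wild type asks what differs before egg chambers reach their late stages. GstE14 and GstE12 rose in young ovaries and GstD3 fell. GstE14, the ecdysone synthesis gene, was at 46.0 and 58.6 TPM in young ovaries, against 4.99 and 4.80 TPM in adult ovaries. Its log2 difference was 3.17 (SE 0.53, adjusted p = 0.00266), with both young libraries far above both adult ones, and it passed without any 1 of the 4 libraries. GstE12 was at 169 and 221 TPM in young ovaries, against 63.0 and 62.9 TPM in adult ovaries, a difference of 1.61 (SE 0.34, adjusted p = 0.0103). GstD3 was at 50.4 and 45.5 TPM in young ovaries, against 99.3 and 149 TPM in adult ovaries, a difference of -1.33 (SE 0.39, adjusted p = 0.0489). These 3 calls of 29 genes (10.3%) stood beside calls for 11.1% of all 8864 tested genes. The GstD3 groups did not overlap, yet the call was lost without any 1 of the 4 libraries (differences of -1.62 to -1.04) and with the strand label as a term (adjusted p = 0.0546). That of GstE12 was lost without either adult library or young replicate 2 (1.41 to 1.61).

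Several abundant Gst genes had lower levels in young ovaries without passing the test. GstD1 was at 684 and 582 TPM in young ovaries, against 1771 and 1392 TPM in adult ovaries (difference -1.31, SE 0.42, adjusted p = 0.0681). Its libraries did not overlap, and the summed TPM of the family was 1991 and 1955 in young ovaries, against 3261 and 2936 in adult ovaries. Every young library was below every adult one for 13 of the 29 Gst genes, against 34.6% of all genes, among them GstE6, GstE7, GstE8, GstE11, GstO1, GstO2, GstO3, GstT1 and GstT2. GstD2, a delta enzyme that acts on plant isothiocyanates, had the largest of these differences with 1.62 and 1.11 TPM in young ovaries, against 5.27 and 6.36 TPM in adult ovaries (-1.53, SE 0.79, adjusted p = 0.261). The median difference was -0.23 over the 29 genes and -0.05 over all genes. Replicate 1 of young wild type, tst mutant, tst RNAi and adult wild type had no strand given in its label, and replicate 2 had reverse. Within these replicate numbers the GstE14 difference was 2.97 and 3.36, that of GstE12 1.41 and 1.80, and that of GstD3 -0.96 and -1.69. With the number as a block 8 Gst genes passed, against 20.6% of all genes, GstE2 added to those that rose and GstD1, GstE6, GstO1 and GstT1 to those that fell.

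Marker transcripts of other cell populations differed along with age. All 8 genes of late follicle cells that build the eggshell (chorion) fell, to summed levels of 42.4 to 87.1 TPM in young ovaries, against 40751 to 53118 TPM in adult ovaries. All 10 genes of the muscle sheath rose, to 5149 to 6740 TPM, against 304 to 458 TPM, and 6 of 9 blood cell (hemocyte) genes rose, to 1903 to 2231 TPM, against 162 to 205 TPM. Whether these cells play a part in the Gst values was not tested. Of the cytochrome P450 genes, which oxidise many of the same classes of substrate, 10 rose and 4 fell of 59 tested. They included Cyp313a4 with 4.02 (SE 0.40, adjusted p = 5.4e-05) and Cyp4s3 with -3.61 (SE 0.59, adjusted p = 0.0023). None of the 8 other ecdysone synthesis genes passed beside GstE14 (3 rose with the replicate block).

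**Figure D2:**
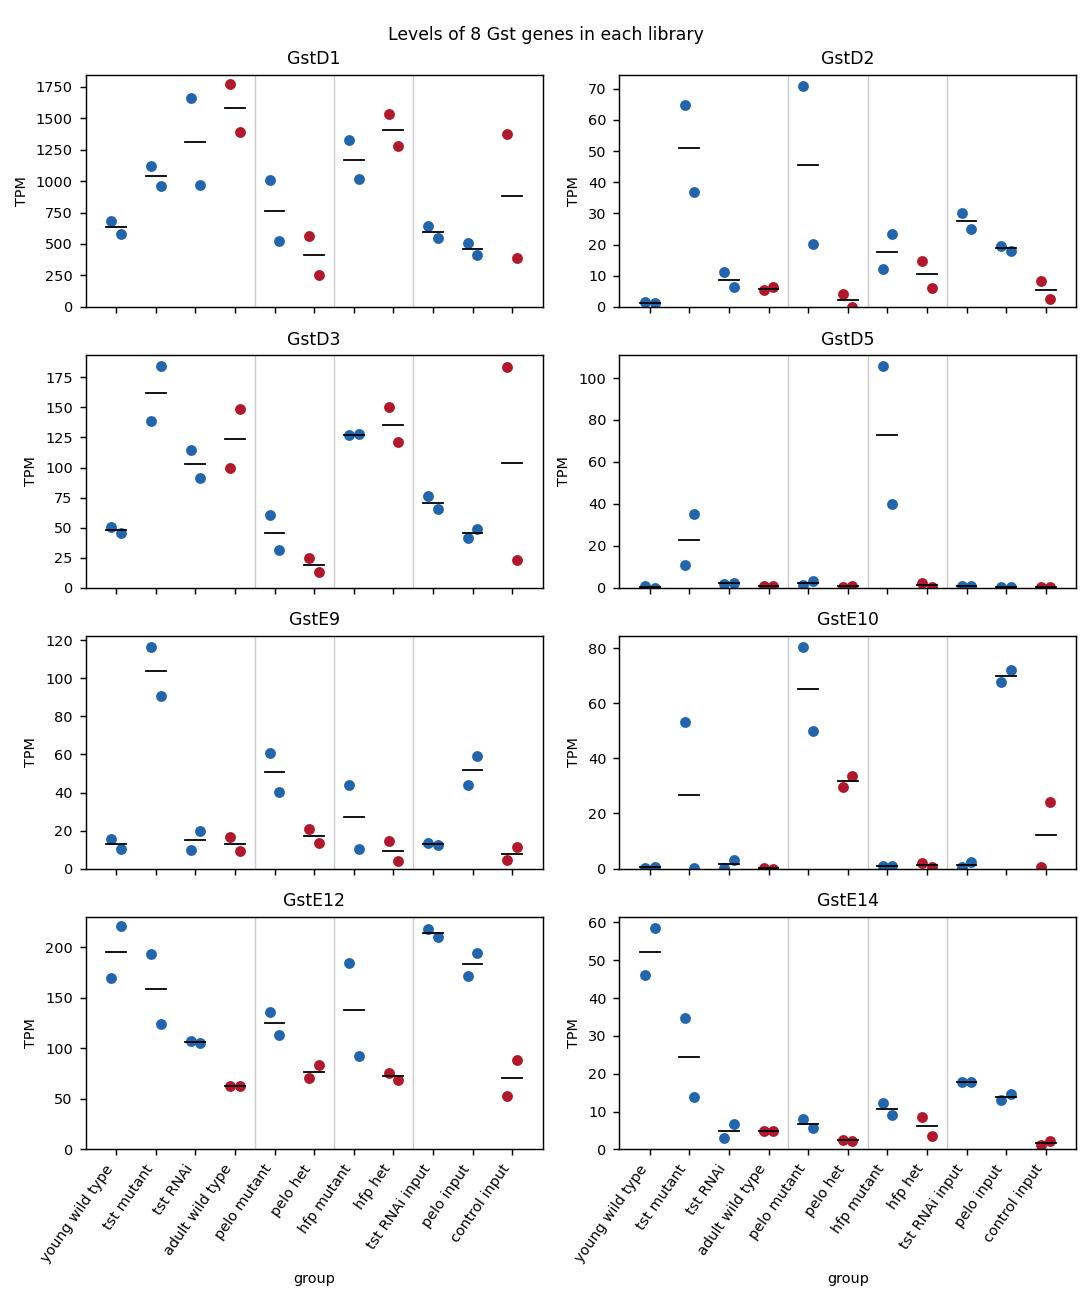
TPM of 8 Gst genes in each library (points) with the group mean (line), for 8 total mRNA groups and 3 input groups of 2 libraries each; blue marks the young, mutant and RNAi groups and red their references. GstE14 reaches 46.0 and 58.6 TPM in young ovaries, GstD5 is high in the hfp and tst mutants, and GstE10 splits the tst mutant and control input libraries.

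In the tst mutant 4 Gst genes rose and none fell: GstD5 and GstD10 of the delta class, and GstE9 and GstE5 of the epsilon class. The tst protein belongs to the Ski complex, which feeds mRNA to the exosome for decay. GstE9 was at 117 and 90.8 TPM in the tst mutant, against 16.4 and 9.42 TPM in adult wild type, a difference of 2.95 (SE 0.69, adjusted p = 0.0343). GstD5 was at 10.7 and 35.0 TPM in the tst mutant, against 0.737 and 0.596 TPM in adult wild type, a difference of 3.62 (SE 0.69, adjusted p = 0.0144). GstD10 reached 16.2 and 6.47 TPM in the tst mutant, against 0.795 and 0.761 TPM in adult wild type (2.67, SE 0.60, adjusted p = 0.0289). GstE5 reached 14.3 and 9.38 TPM in the tst mutant, against 1.27 and 1.70 TPM in adult wild type (2.35, SE 0.51, adjusted p = 0.0275). In each of the 4 both mutant libraries exceeded both wild type ones. The 4 calls of 29 genes (13.8%) stood beside 4.23% of all 8864 genes. Leaving out either adult library ended all 4 calls, and leaving out tst mutant replicate 1 kept only that of GstD5. The calls of GstD5 and GstE9 were also lost without tst mutant replicate 2. Over these settings the differences stayed between 2.07 and 4.44. Within replicates 1 and 2, GstE9 differed by 2.76 and 3.14, GstD5 by 2.75 and 4.50, GstD10 by 3.26 and 2.09, and GstE5 by 2.76 and 1.94.

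More genes were higher without passing the test. In 18 of the 29 Gst genes both tst mutant libraries exceeded both adult ones, against 32.3% of all genes, and the median difference was 0.70 over the Gst genes and 0.02 over all genes. The omega gene GstO3 was at 73.2 and 67.0 TPM in the tst mutant, against 17.8 and 23.8 TPM in adult wild type (1.72, SE 0.49, adjusted p = 0.0699). GstD9 was at 132 and 101 TPM in the tst mutant, against 34.6 and 36.9 TPM in adult wild type (1.66, SE 0.63, adjusted p = 0.168). With the replicate number as a block 10 Gst genes rose and none fell, against 11.2% of all genes: GstD2, GstD9, GstE3, GstE12, GstE14 and GstO3 joined the 4. GstE10 was at 53.1 TPM in tst mutant replicate 1 and 0.207 TPM in replicate 2, against 0.136 and 0 TPM in adult wild type, so its difference of 2.92 (SE 1.25, adjusted p = 0.231) rests on 1 library. GstD1 had the largest difference downwards, with 1122 and 964 TPM in the tst mutant, against 1771 and 1392 TPM in adult wild type (-0.59, SE 0.42, adjusted p = 0.539), and held 33.8% and 29.0% of the family's TPM there. Of the P450 genes 13 of 59 rose and none fell, and of the UDP-glycosyltransferase (UGT) genes, which attach sugars to toxins and hormones, 4 of 18 rose and none fell. By adjusted p the first among them were Cyp12a4 with 3.99 (SE 0.47, adjusted p = 0.00135) and Ugt302E1 with 1.58 (SE 0.25, adjusted p = 0.00627). The transporter Mrp4, of the family that exports conjugates, rose by 2.94 (SE 0.60, adjusted p = 0.0198). Chorion genes fell in 5 of 8 cases, with a sum of 4588 to 8126 TPM in the tst mutant, against 40751 to 53118 TPM in adult wild type. Muscle genes rose in 6 of 10 cases (1394 to 2427 TPM, against 304 to 458 TPM) and hemocyte genes in 3 of 9 (645 to 1491 TPM, against 162 to 205 TPM). What these cells add to the Gst values was not tested.

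Under tst RNAi in the germline no Gst gene passed in total mRNA by limma, nor with the replicate block; 3 had an unadjusted p under 0.05, and 1.02% of all genes passed (2.39% with the block). GstE9 was at 9.82 and 20.0 TPM in tst RNAi, against 16.4 and 9.42 TPM in adult wild type, so the libraries overlapped. The theta gene GstT4 had the largest difference, with 60.0 and 18.6 TPM in tst RNAi, against 9.26 and 7.79 TPM in adult wild type (1.86, SE 0.68, adjusted p = 0.343). Among genes whose libraries did not overlap, GstT3 had the largest one downwards, with 43.6 and 39.7 TPM, against 44.8 and 49.9 TPM (-0.18, SE 0.42, adjusted p = 1). Set against tst RNAi, the tst mutant had no Gst gene past the threshold, with 10 at an unadjusted p under 0.05 and 1.03% of all genes called. GstE9 came nearest (2.78, SE 0.69, adjusted p = 0.0866) and passed with the replicate block (adjusted p = 0.0142), as did GstD9, GstE5 and GstO3, against 2.3% of all genes. GstS1 had the largest difference downwards, with 101 and 51.8 TPM in the tst mutant, against 175 and 110.2 TPM in tst RNAi (-0.93, SE 0.43, adjusted p = 0.475). The young, tst mutant and tst RNAi comparisons share the adult wild type libraries.

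Loss of pelo, which encodes a factor that frees stalled ribosomes, left no Gst gene past the threshold in total mRNA, although most were higher. By limma 13 of 29 had an unadjusted p under 0.05, and 0.226% of all genes passed. GstD2 differed most, with 71.0 and 20.2 TPM in the pelo mutant, against 4.19 and 0 TPM in its heterozygote (4.10, SE 0.79, adjusted p = 0.0664). In 18 of the 29 genes both mutant libraries exceeded both heterozygous ones, against 16.9% of all genes, and GstE13 alone was lower in both, with 73.1 and 72.8 TPM in the mutant, against 105 and 82.4 TPM in the heterozygote (-0.35, SE 0.27, adjusted p = 1). The median difference was 0.86 over the Gst genes and -0.01 over all genes. The block by replicate number gave 3 calls, GstD2, GstD9 and GstE6, against 0.903% of all genes, and GstD2 also passed without pelo mutant replicate 2 (4.98). GstE6 was at 462 and 295 TPM in the pelo mutant, against 187 and 125 TPM in the heterozygote. Adult wild type had 325 and 364 TPM of it. The summed TPM of the 29 genes was 3047 and 2149 in the pelo mutant, against 1944 and 1338 in its heterozygote. That sum was 3261 and 2936 in adult wild type, and 3197 and 2576 in the hfp heterozygote. Summed muscle markers were at 1794 to 1973 TPM in the pelo mutant, against 214 to 685 TPM in the heterozygote, and those of gut and oviduct at 16.6 and 479 TPM, against 4.67 and 10.3 TPM. Chorion genes summed to 8188 to 14476 TPM in the pelo mutant, against 14762 to 63444 TPM in the heterozygote. Their share in the Gst values was not tested. The P450 gene Cyp310a1 was the only gene of the other detoxification lists that passed (2.06, SE 0.29, adjusted p = 0.012).

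In the hfp mutant GstD5 rose, the only 1 of 29 Gst genes (3.45%) to pass, against 0.993% of all genes. hfp encodes a splicing factor of the poly-U binding kind. GstD5 was at 106 and 40.1 TPM in the hfp mutant, against 2.46 and 0.128 TPM in its heterozygote, a difference of 5.06 (SE 0.69, adjusted p = 0.00398). Both mutant libraries were above every other library of the series. The call was lost without hfp heterozygote replicate 2 (4.25, adjusted p = 0.0554). The genes beside it in the array moved less: GstD4 had 8.43 and 1.90 TPM in the mutant, against 2.27 and 1.48 TPM in the heterozygote, and GstD3 had 127 and 127.5 TPM, against 150 and 121 TPM. GstZ1 had the largest difference downwards, with 37.4 and 19.4 TPM in the mutant, against 84.5 and 47.9 TPM in the heterozygote (-1.21, SE 0.39, adjusted p = 0.219). The test of the hfp difference against the pelo difference called no Gst gene, with 6 at an unadjusted p under 0.05 and 0.248% of all genes called. GstD5 gave 4.20 there (SE 0.97, adjusted p = 0.182) and GstD2 -3.34 (SE 1.11, adjusted p = 0.741). Among other lists the P450 gene Cyp6d2 rose by 3.94 (SE 0.81, adjusted p = 0.0432). The germline thioredoxin gene dhd fell to 550 ± 224 TPM in the hfp mutant, against 6163 ± 792 TPM in its heterozygote (SD, n = 2 each; -3.54, SE 0.50, adjusted p = 0.00488, limma). Summed muscle markers were at 1326 to 2016 TPM in the hfp mutant, against 267 to 430 TPM in its heterozygote, and its part in the Gst values was not tested.

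**Figure D3:**
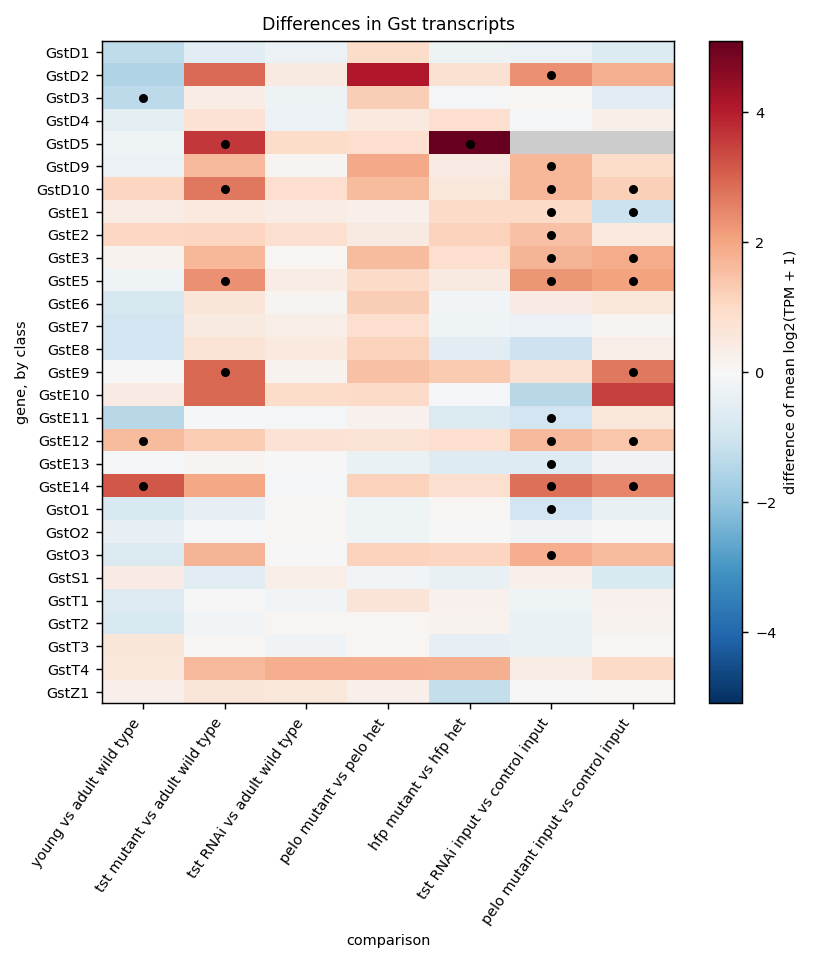
Differences of mean log2(TPM + 1) for each Gst gene (rows, by class) in 7 comparisons (columns); red is higher and blue lower in the first-named group, a black dot marks an adjusted p under 0.05 (limma), and grey was not tested. GstD5 has the darkest cell, in the hfp mutant, and the 2 input comparisons hold most of the dots.

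The mean of both heterozygotes differed from adult wild type in no Gst gene by limma, with 7 at an unadjusted p under 0.05 and 0.124% of all genes called. Among genes whose libraries did not overlap, GstE10 had the largest difference (2.95, SE 1.08) and GstO3 the largest downwards (-0.996, SE 0.42), with an adjusted p = 1 for both. With the replicate number as a block GstD1 (-1.10) and GstD3 (-1.28) passed. The heterozygotes themselves differed, which was looked at after the values were seen. GstD3 was at 24.5 and 12.9 TPM in the pelo heterozygote, against 99.3 and 149 TPM in adult wild type and 150 and 121 TPM in the hfp heterozygote. It fell by 2.70 on the log2 scale against adult wild type (SE 0.39, adjusted p = 0.0347), the only call of 29 Gst genes (0.0564% of all genes), and by 2.85 against the hfp heterozygote (SE 0.39, adjusted p = 0.0109), again the only call (0.113% of all genes). Either adult library or pelo heterozygote replicate 2, when left out, ended the call against adult wild type (differences of -2.99, -2.41 and -2.26). Pelo heterozygote replicate 2 or either hfp heterozygote library ended the other (-2.41, -3.01 and -2.69). GstD1 stood lower as well, with 563 and 257 TPM in the pelo heterozygote, against 1771 and 1392 TPM in adult wild type (-2.04, SE 0.42, adjusted p = 0.144). With the replicate number as a block GstD1 passed against adult wild type (adjusted p = 0.00245), as did GstE6 (-1.16, adjusted p = 0.0265), and against the hfp heterozygote (-1.88, adjusted p = 0.00883).

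GstE10 ran the other way and was high in every library labelled with the pelo1 allele. It was at 80.3 and 49.9 TPM in the pelo mutant, 29.5 and 33.7 TPM in the pelo heterozygote, 67.6 and 72.0 TPM in the pelo mutant inputs, 65.4 and 65.6 TPM on pelo mutant polysomes, and 24.1 and 14.6 TPM in the pelo1/CyO control input and polysome library. It was at 3.00 TPM or less in every other library except tst mutant replicate 1 (53.1 TPM) and the bam RNAi polysome library (12.3 TPM). Against adult wild type the pelo heterozygote differed by 4.93 (SE 1.25, adjusted p = 0.392), and against the hfp heterozygote by 3.97 (SE 1.25, adjusted p = 0.759). The SE of 1.25 compares with a median SE of 0.472 over all genes. The annotated spans of GstE10 and its neighbour GstE1 overlap by 127 bases, and how reads of that stretch were counted is not stated. The control preparations differed in GstD1 and GstD3 too: the pelo1/CyO control input had 389 TPM of GstD1 and 23.3 TPM of GstD3, against 1376 and 184 TPM in the control input with the nos driver.

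By position in the Release 6 assembly (dm6), the 7 delta genes lay in 1 array of 11.8 kb on chromosome arm 3R, from 12364776 to 12376572, in the order GstD10, GstD9, GstD1, GstD2, GstD3, GstD4 and GstD5. Of the epsilon genes 9 lay in an array of 13.2 kb on 2R, from 18396638 to 18409835, in the order GstE10, GstE1, GstE2, GstE3, GstE5, GstE6, GstE7, GstE8 and GstE9, and GstE11, GstE12, GstE13 and GstE14 lay elsewhere on 2R. Neighbouring genes differed by unequal amounts. In the tst mutant GstD10 and GstD5, at the ends of the delta array, rose. Between them GstD2 and GstD9 differed by 2.88 and 1.66, without passing except in alternatives such as the replicate block. GstD1 and GstD3, which also lie between them, differed by -0.59 and 0.39. In the epsilon array GstE9 at one end and GstE5 rose, while GstE6, GstE7 and GstE8 between them differed by 0.61, 0.46 and 0.70 without passing. In the hfp mutant the 5.06 of GstD5 stood beside 0.88 for GstD4, its neighbour, and in the pelo mutant the 4.10 of GstD2 stood beside 0.93 for GstD1 and 1.24 for GstD3. In young ovaries GstD10, first in the array, differed by 1.09 and GstD1, GstD2 and GstD3 by -1.31 to -1.53. Copies within an array are similar in sequence, so reads may be shared unevenly between them.

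**Figure D4:**
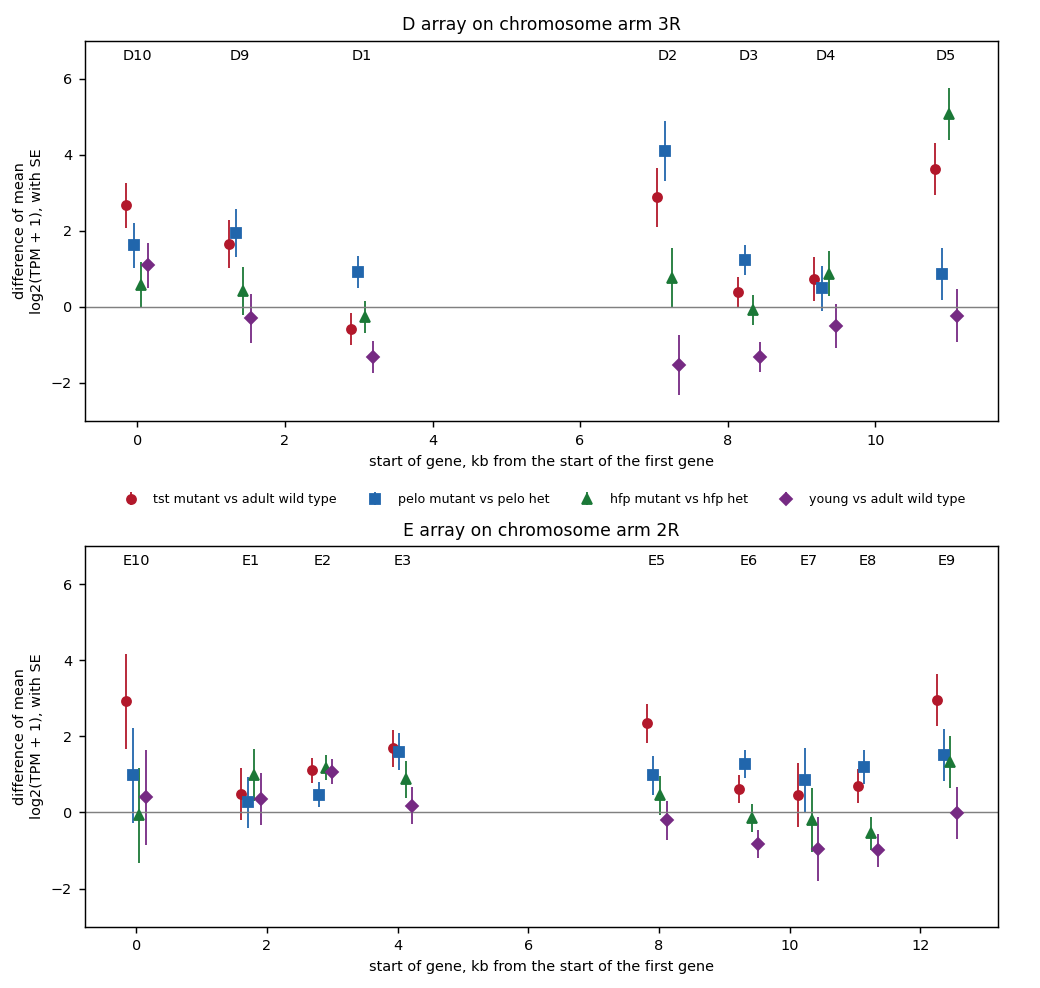
Difference of mean log2(TPM + 1), with its SE, for the genes of the delta and epsilon arrays, placed by the start of each gene in kb from the start of the first gene, for 4 comparisons. GstD5 stands at 5.06 in the hfp mutant and 3.62 in the tst mutant, while GstD4 before it lies below 1 in all 4.

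The inputs of the polysome experiment gave more calls, with a median SE of 0.303 over all genes, against 0.472 in the total mRNA set. In tst RNAi inputs 10 Gst genes rose and 3 fell of 28 tested (46.4%), against 40% of all 8572 genes; GstD5 was under the filter of 1 TPM in 2 libraries. GstE14 was at 17.8 and 17.8 TPM in tst RNAi inputs, against 1.23 and 2.19 TPM in control inputs, a difference of 2.82 (SE 0.47, adjusted p = 0.00093). GstE12 was at 218 and 210 TPM in tst RNAi inputs, against 52.4 and 88.4 TPM in control inputs (1.64, SE 0.33, adjusted p = 0.00293). GstE2 was at 4.55 and 3.37 TPM in tst RNAi inputs, against 0.696 and 0.783 TPM in control inputs (adjusted p = 0.00148). The other 7 that rose, with their log2 differences, were GstD2 (2.33), GstE5 (2.26), GstO3 (1.86), GstE3 (1.72), GstD10 (1.69), GstD9 (1.68) and GstE1 (0.96). Of these GstD10 was low throughout, at 3.66 and 2.66 TPM in tst RNAi inputs, against 0.177 and 0.398 TPM in control inputs. Among those that fell, GstO1, an omega enzyme, was at 68.3 and 68.0 TPM in tst RNAi inputs, against 131 and 135 TPM in control inputs (-0.96, SE 0.19, adjusted p = 0.00274). GstE11 (-0.99) and GstE13 (-0.65) were the others that fell. GstE8 was at 12.5 and 12.9 TPM in tst RNAi inputs, against 40.0 and 18.5 TPM in control inputs (-1.05, SE 0.41, adjusted p = 0.0645). Without the pelo1/CyO control input, which leaves the control with the same driver, 12 Gst genes passed: GstE11, GstE13 and GstD2 no longer did (-0.89, -0.60 and 1.59), and GstE8 (-1.58) and GstD1 (-1.21) did. Without the control input with the nos driver 10 passed, and GstE3, GstO3 and GstE13 no longer did (1.27, 1.69 and -0.70). Leaving out either tst RNAi input gave 9. Under equal library medians GstE11, GstE13 and GstO1 did not pass (-0.54, -0.20 and -0.51).

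The same genotype had given no Gst call in the total mRNA libraries, where the reference was adult wild type. The tst transcript was at 18.0 and 14.4 TPM in tst RNAi inputs, against 32.4 and 30.3 TPM in control inputs. In total mRNA it was at 6.77 and 11.7 TPM in tst RNAi, against 35.3 and 39.6 TPM in adult wild type. In the input set control replicate 2 was pelo1/CyO, and the median SE over all genes was 0.303, against 0.472 in total mRNA. Summed marker transcripts differed between the preparations as well. Summed chorion genes were at 1159 to 1390 TPM in tst RNAi inputs and 18709 to 36725 TPM in tst RNAi total mRNA, against 27384 to 40206 TPM in control inputs and 40751 to 53118 TPM in adult wild type. Summed muscle genes were at 5037 to 5110 TPM in tst RNAi inputs, against 342 to 443 TPM in control inputs, and hemocyte genes at 976 to 1220 TPM, against 109 to 123 TPM. In tst RNAi total mRNA, where no Gst gene passed, muscle genes summed to 2719 to 2847 TPM, against 304 to 458 TPM in adult wild type (7 of 10 rose), and hemocyte genes to 459 to 616 TPM, against 162 to 205 TPM (3 of 9 rose). Germline genes fell in 5 of 6 cases in tst RNAi inputs, with sums of 634 to 706 TPM, against 1864 to 2296 TPM in control inputs. No test was made of the part of any of these differences in the Gst values, which was not tested in total mRNA either. Ecdysone synthesis genes rose in 7 of 8 cases, among them shd, the enzyme of the last step, with 1.91 (SE 0.25, adjusted p = 0.000227) and nvd, the enzyme of the first, with 2.27 (SE 0.39, adjusted p = 0.00118). P450 genes rose in 29 and fell in 9 of 53 cases, and UGT genes rose in 9 and fell in 2 of 18. Of the 5 glutathione synthesis and turnover genes 2 rose and 3 fell. The risers were CG10365 (1.28, SE 0.19, adjusted p = 0.000447) and CG4829 (1.51, SE 0.32, adjusted p = 0.00366). Those that fell included Ggt-1, which breaks glutathione down outside the cell (-2.13, SE 0.29, adjusted p = 0.000307), and Gclm, a subunit of the enzyme that starts its synthesis (-1.18, SE 0.28, adjusted p = 0.00753). The transcription factor gene cnc, known to drive detoxification genes, fell by 1.12 on the log2 scale (SE 0.31, adjusted p = 0.0155). It alone passed among the 3 genes of its regulator list, whose median difference was 0.38.

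In pelo mutant inputs 6 Gst genes rose and 1 fell of 28 tested (25%), against 12.2% of all genes. GstE9 was at 44.1 and 59.3 TPM in pelo mutant inputs, against 4.32 and 11.3 TPM in control inputs, a difference of 2.69 (SE 0.52, adjusted p = 0.00604). GstE14 was at 13.2 and 14.5 TPM in pelo mutant inputs, against 1.23 and 2.19 TPM in control inputs (2.48, SE 0.47, adjusted p = 0.00496). GstE5 (2.05), GstE3 (1.87), GstE12 (1.41) and GstD10 (1.23) were the others that rose. GstD10 was low throughout, at 2.87 and 1.35 TPM in pelo mutant inputs, against 0.177 and 0.398 TPM in control inputs. GstE1, known to act on products of lipid oxidation, was at 46.7 and 43.5 TPM in pelo mutant inputs, against 103 and 93.3 TPM in control inputs (-1.10, SE 0.22, adjusted p = 0.00693), with no overlap. GstE10 was at 67.6 and 72.0 TPM, against 0.546 and 24.1 TPM (3.50, SE 1.23, adjusted p = 0.087). The calls depended on single libraries of both groups. Against the pelo1/CyO control input alone, the control that shares the pelo1 allele, none of the 7 passed, with differences of 1.04 to 2.22 for the 6 and -1.03 for GstE1, and GstD9 alone did (1.67, adjusted p = 0.0136). Against the control input with the nos driver alone 9 passed, with GstE10 (5.52) and GstD1 (-1.59) added. Leaving out pelo mutant input replicate 1 left 3 calls and replicate 2 left 2, and GstE3, GstE5 and GstE12 were lost without either. P450 genes rose in 23 and fell in 1 of 53 cases, among them Cyp310a1 (2.36, SE 0.27, adjusted p = 0.000269), and UGT genes rose in 8 of 18. Muscle genes rose in all 10 cases, to sums of 3139 to 4165 TPM in pelo mutant inputs, against 342 to 443 TPM in control inputs, and hemocyte genes in 7 of 9 (444 to 702 TPM, against 109 to 123 TPM). Fat body genes rose in all 4 tested cases (174 to 210 TPM over the list of 7, against 1.03 to 17.3 TPM). What these cells add to the Gst values was not tested.

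tst RNAi inputs were also set directly against pelo mutant inputs, a comparison added after the values were seen. Of 28 Gst genes tested 3 were higher and 3 lower in tst RNAi inputs (21.4%), against 9.61% of all genes. GstE1 was at 186 and 199 TPM in tst RNAi inputs, against 46.7 and 43.5 TPM in pelo mutant inputs (2.07, SE 0.22, adjusted p = 0.000561), and passed without any 1 of the 4 libraries. GstE11 was at 30.8 and 29.1 TPM in tst RNAi inputs, against 96.9 and 82.6 TPM in pelo mutant inputs (-1.55, SE 0.25, adjusted p = 0.00389; -1.43 and no call without pelo mutant input replicate 1). GstS1 was at 140 and 123 TPM, against 64.0 and 63.3 TPM (1.03, SE 0.26, adjusted p = 0.0316), and GstE2 at 4.55 and 3.37 TPM, against 1.65 and 1.33 TPM (0.99, SE 0.27, adjusted p = 0.042). GstE9 was at 13.3 and 12.2 TPM, against 44.1 and 59.3 TPM (-1.92, SE 0.52, adjusted p = 0.0427), and GstE10 at 0.596 and 2.35 TPM, against 67.6 and 72.0 TPM (-4.94, SE 1.23, adjusted p = 0.0299). No group overlapped in these 6 genes, and the calls of GstS1, GstE2, GstE9 and GstE10 were lost without any 1 of the 4 libraries, with differences of 0.94 to 1.12, 0.82 to 1.16, -2.13 to -1.71 and -5.47 to -4.40.

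Polysome RNA was set against its input to see whether each Gst transcript held a larger or smaller share of polysome RNA than of input RNA. Levels on both sides are shares of their own library, so the fraction of a transcript on ribosomes was not measured. In tst RNAi ovaries no Gst gene passed by limma (4 at an unadjusted p under 0.05, and 0.035% of all genes called), although both polysome libraries exceeded both inputs for 21 of 28, against 39.3% of all genes. GstE6 had the largest difference, with 730 and 552 TPM on polysomes, against 386 and 358 TPM in inputs (0.77, SE 0.23, adjusted p = 0.276). In the pelo mutant 1 Gst gene of 28 (3.57%) was called, against 5.9% of all genes. It was GstE12, with 338 and 316 TPM on polysomes, against 171 and 194 TPM in inputs (0.84, SE 0.19, adjusted p = 0.0436), and the call was lost without any 1 of its 4 libraries (0.70 to 0.97). Both polysome libraries exceeded both inputs for 21 of 28, against 21.5% of all genes. GstE14 differed by 0.91 (SE 0.35, adjusted p = 0.126) and GstE1 had the largest difference downwards in the pelo mutant among genes above 5 TPM, with 33.0 and 39.6 TPM on polysomes, against 46.7 and 43.5 TPM in inputs (-0.31, SE 0.23, adjusted p = 0.39).

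In control ovaries 3 Gst genes of 28 (10.7%) were higher on polysomes, against 41.7% of all genes called, of which 279 were higher and 3293 lower on polysomes. The median difference was 0.09 over the Gst genes and -0.55 over all genes. GstE11 was at 73.4 and 124 TPM on polysomes, against 56.3 and 64.6 TPM in inputs (0.65, SE 0.22, adjusted p = 0.0391). GstE12 was at 73.5 and 156 TPM on polysomes, against 52.4 and 88.4 TPM in inputs (0.65, SE 0.19, adjusted p = 0.0237), and its libraries overlapped. GstE13 was at 143 and 155 TPM on polysomes, against 97.3 and 105 TPM in inputs (0.56, SE 0.19, adjusted p = 0.0411). The calls of GstE11 and GstE12 were lost without control input or polysome replicate 2 (0.38 and 0.48), and that of GstE13 without any 1 of the 4 (0.55 to 0.56). GstE1 differed by -0.53 (SE 0.23, adjusted p = 0.0914). The direction of the calls turned with the control preparation that was left. Without input or polysome replicate 2, which leaves the control with the nos driver, 6 Gst genes were called and all were lower on polysomes: GstT4 (-1.44), GstS1 (-1.12), GstE1 (-0.87), GstD3 (-0.79), GstT1 (-0.73) and GstD1 (-0.70). Without replicate 1, which leaves pelo1/CyO, 5 were called and all were higher: GstE11 (0.93), GstD1 (0.89), GstE12 (0.82), GstE6 (0.73) and GstO2 (0.68). The difference of ratios called no Gst gene, neither between tst RNAi and control (23% of all genes) nor between pelo mutant and control (0% of all genes), each with 1 Gst gene at an unadjusted p under 0.05. For GstE1 the tst RNAi ratio exceeded the control ratio by 0.97 (SE 0.32, adjusted p = 0.0559), beside a median of 0.70 over all genes. Without control input or polysome replicate 2, 9 Gst genes passed in the tst RNAi test. In the pelo mutant test 6 passed without that input and 5 without that polysome library.

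**Figure D5:**
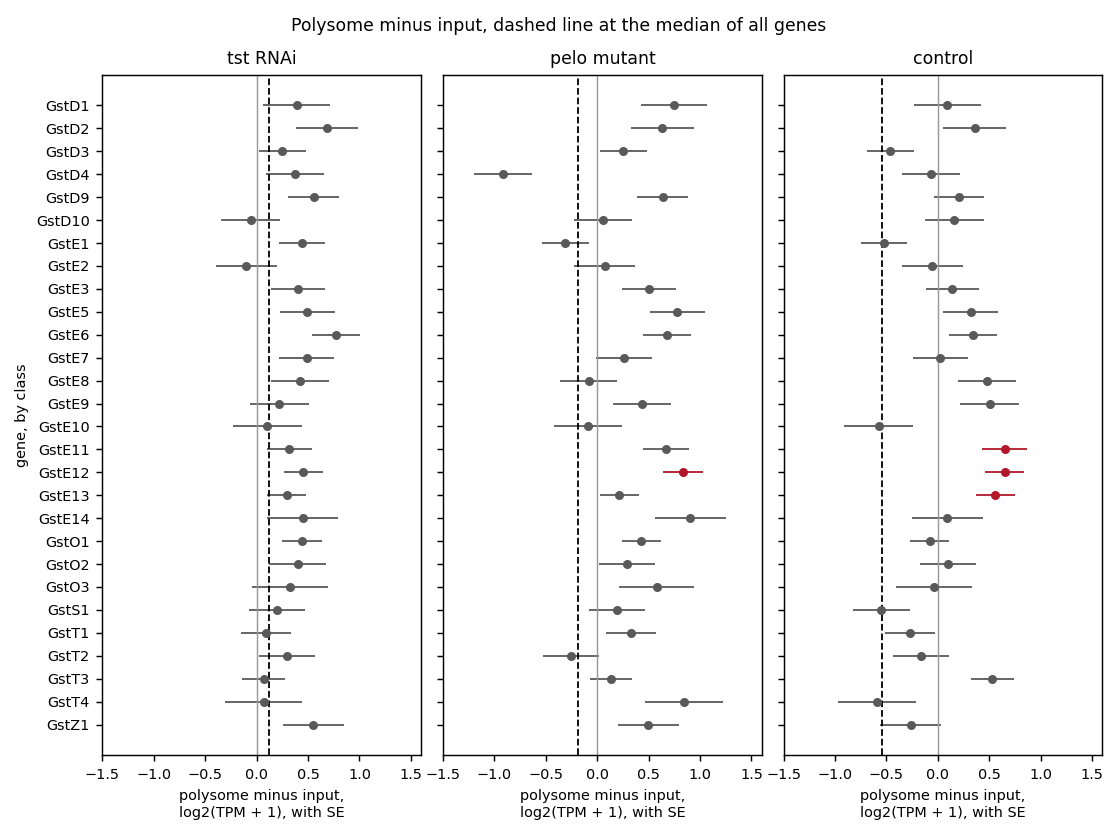
Polysome minus input, as a difference of log2(TPM + 1) with its SE, for the 28 tested Gst genes in tst RNAi, pelo mutant and control ovaries (2 preparations each); red marks an adjusted p under 0.05 (limma), and the dashed line is the median of all genes. The Gst genes lie mostly to the right of that line in each panel, which stands at 0.12, -0.18 and -0.55.

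The bam libraries had 1 sample each, so no test was made, and a gene was counted as higher or lower when its log2(TPM + 1) lay 1 or more beyond the nearer of the 2 control libraries. bam is needed for germ cells to leave the stem cell state, and its transcript measured 3.10 TPM in bam RNAi input and 5.61 TPM in bam mutant ovaries, against 65.1 and 40.1 TPM in control inputs. In the bam RNAi input 8 of 28 Gst genes were higher and 2 lower, against 18.6% and 10.5% of all genes, and in the bam mutant, whose table was normalized separately, 9 were higher and 4 lower, against 21% and 9.37%. Summed muscle genes were at 7868 TPM in bam RNAi input and 7301 TPM in bam mutant ovaries, against 342 to 443 TPM in control inputs, and hemocyte genes at 2000 and 2085 TPM, against 109 to 123 TPM. Fat body genes summed to 20.7 TPM in bam RNAi input and 2538 TPM in bam mutant ovaries, against 1.03 to 17.3 TPM in control inputs, and those of gut and oviduct to 19.4 and 179 TPM, against 8.57 to 10.5 TPM. How these cells bear on the Gst values was not tested. GstE6 had 48.9 TPM in bam RNAi input and 59.3 TPM in bam mutant ovaries, against 352 and 222 TPM in control inputs. GstE8 was at 4.29 and 4.51 TPM in these bam libraries, against 40.0 and 18.5 TPM in control inputs. Both genes were thus low in each bam library that was not from polysomes. GstE12 was at 250 and 321 TPM, against 52.4 and 88.4 TPM, and GstS1 at 268 and 291 TPM, against 127 and 96.1 TPM. GstE2 was at 5.95 and 5.76 TPM, above its level in every other library, where it was at 4.86 TPM or less. GstE14 had 9.40 TPM in bam RNAi input and 2.42 TPM in bam mutant ovaries, against 1.23 and 2.19 TPM in control inputs.

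The rule of log2 1 or more, against the control polysome libraries, was kept for bam RNAi polysomes. There 6 of 28 Gst genes were higher and none lower, against 18.9% and 0.665% of all genes. GstE6 was at 293 TPM there, against 48.9 TPM in the bam RNAi input, with GstE7 at 41.6 TPM, against 8.71 TPM, GstE8 at 22.3 TPM, against 4.29 TPM, GstE9 at 19.8 TPM, against 2.24 TPM, and GstE10 at 12.3 TPM, against 1.06 TPM. These 5 genes lie in the epsilon array. Of the rest of that array, GstE1 was at 230 TPM on bam RNAi polysomes, against 216 TPM in the input. GstE3 was at 24.9 TPM, against 13.2 TPM, GstE5 at 12.3 TPM, against 9.85 TPM, and GstE2 at 4.86 TPM, against 5.95 TPM. Outside the array some genes were higher too, such as GstD3 (143 TPM, against 60.3 TPM), and some lower, such as GstS1 (191 TPM, against 268 TPM). The library labelled bam RNAi polysome also held 18.9 TPM of bam and 13651 TPM of summed chorion genes, against 3.10 and 101 TPM in its input, and 3288 TPM of summed muscle genes, against 7868 TPM, and how this bears on the Gst values was not tested.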

How the data were processed

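Per the labels' protocols, poly(A) RNA of whole ovaries was made into directional libraries, and polysome samples came from gradients. The submitters' processing notes name HISAT2 2.0.5 and featureCounts 1.5.1 as tools and dm6 as the build, and the labels give no use of strand. The authors deposited TPM on a log2 scale, per the file headers. After removal of the log and of 0.5, each column summed closely to the fixed total of TPM values over 9251 genes (the bam mutant had a table of its own), and log2(TPM + 1) was taken again. Depth is unknown.

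The total mRNA libraries (16) and the input and polysome libraries (12) were fitted separately with limma 3.58.1 (R 4.3.3; trend in the variance) on the 8864 and 8572 genes that reached 1 TPM in 2 libraries, with Benjamini-Hochberg adjustment over all of them and a threshold of 0.05. Polysome and input of 1 preparation shared a block. The fits were checked on simulated data. Alternatives were pseudocounts of 0.5 and 5, no filter or 5 TPM, quantile normalization, equal library medians, a replicate block, the strand label as a term, and leaving out each library.

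Same-numbered libraries deviated together in the adult, young and tst groups (correlations of 0.613 to 0.762), where the number also splits the strand label. Named genes were those past the threshold, the highest of each class, and the largest non-overlapping difference each way with at least 5 TPM; pathway genes were those of smallest adjusted p per list. The Gst genes and lists were chosen with earlier results of these data known. Figures used Python 3.11.15 with matplotlib 3.10.9. No sequences were used here, and a planned search of promoters was not run.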

Additional observations from a re-analysis of the deposited data

Results flagged for a closer look

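Levels of 6 Gst genes differed between tst RNAi inputs and pelo mutant inputs by the direct limma contrast, tst RNAi minus pelo mutant. The control inputs cancel in this contrast, which sets 2 genotypes against each other. The log2 difference was 2.07 for GstE1, 1.03 for GstS1 and 0.99 for GstE2, all higher in tst RNAi inputs. It was -1.55 for GstE11, -1.92 for GstE9 and -4.94 for GstE10, all lower in tst RNAi inputs. Apart from that of GstE1, the calls depended on single libraries. GstE10 was also at 24.1 TPM in the pelo1/CyO control input. The contrast was added after the values were seen, and no cause was tested.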

How the results depend on the processing

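Counts of called Gst genes moved with the replicate block, with the scaling and with single libraries. With the replicate block they were 8 (young), 10 (tst mutant), 3 (pelo mutant), 2 (heterozygotes together), 4 (tst mutant against tst RNAi), 3 (pelo heterozygote against adult wild type) and 2 (against the hfp heterozygote), and without the preparation block (no replicate block) 0 for pelo polysomes. Same-numbered libraries correlated at 0.171 to 0.717 in the pelo and hfp groups and -0.227 to -0.007 in inputs, by the data and not by design. Pseudocount 5 gave 7 for the tst mutant and 1 for it against tst RNAi. Quantile normalization gave 1 for the tst mutant, 0 for both pelo heterozygote comparisons, 7 for control polysomes and 3 for pelo polysomes. Equal library medians gave 1, 0 and 0, 11 and 0 for the same results in that order where the all-gene median on control polysomes was then 0.24, against -0.55; no filter gave 0 for pelo polysomes. GstE1 turned to 0.0051 (quantile) and 0.26 (equal medians) on control polysomes and to 0.0247 (equal medians) on pelo polysomes. Leaving out 1 library at a time gave 1 to 2 (young), 0 to 6 (tst mutant), 0 to 1 (pelo mutant), 0 to 1 (hfp mutant), 0 to 1 (tst mutant against tst RNAi), 1 to 9 (pelo inputs), 0 to 1 (each pelo heterozygote comparison), 1 to 2 (tst RNAi against pelo inputs), 5 to 6 (control polysomes), 0 to 0 (pelo polysomes), and 0 to 9 and 0 to 6 for the ratio differences of tst RNAi and pelo. A library left alone in its group is assumed to vary like the other groups. Where no value is named as the reason, the cause was not tested. With 2 libraries a group and unknown depth, genes near 1 TPM are uncertain.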
